A study of Mus musculus with 6 samples.

Results

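The nuclear transport machinery was examined in mouse oocytes as 43 genes of 19938 measured, 20 nucleoporins and 23 transport receptors. Members were taken by gene symbol: Nup followed by a number, and the numbered Kpna, Kpnb, Ipo, Tnpo and Xpo genes with Xpot. One step of the choice used measured values. A gene with several probe sets (array rows) was represented by the one selected on the highest mean over all 6 arrays, which applied to Kpna2 with 3 rows and Nup210l with 9. The other 41 members had 1 row each. The symbol pattern itself uses no fold change or test, but the gene group was picked with earlier results of these data known. Nup58 and Nup42 are named Nupl1 and Nupl2 in the array annotation and fall outside the symbol pattern, and Nup35 is not analysed here.

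Nucleoporins build the nuclear pore complex, the channel through the nuclear envelope. Importins and transportins carry proteins into the nucleus and exportins carry proteins and RNAs out, with the small GTPase Ran giving each journey its direction. Fully-grown oocytes keep a large nucleus, the germinal vesicle, until meiosis resumes, and they work from stored transcripts and proteins because transcription has largely stopped.

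RNA of fully-grown, germinal-vesicle-stage oocytes was measured on 3 arrays from Marf1 mutant females and 3 from wild-type females. The mutants are Marf1 ENU/ENU, homozygous for a chemically induced allele, and the controls are Marf1+/+. Both groups have the strain C57BL/6J;C3HeB/FeJ, received 5 IU of eCG, a gonadotropin that stimulates follicles, at 21 days of age for 46 hours, and gave oocytes at 23 days. The oocytes were stripped of cumulus cells, labelled as transcriptionally silent, and their RNA was amplified with a whole-transcript kit before biotin labelling. What the ENU allele alters, how many oocytes made up a sample, and whether the samples of a genotype came from separate animals are not given in the sources used here. The p-values therefore reflect how far the samples of a genotype scatter, a scatter that may be technical, and 3 arrays per genotype limit the precision. Values are log2 expression after RMA, a normalization that makes the arrays more alike in distribution, so a change in total RNA per oocyte is not visible. In such bulk samples, fewer cells of a type and less RNA per cell cannot be told apart.

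Marf1 itself, whose product is needed for oocyte meiosis, read 5.98, 6.40 and 6.16 on the mutant arrays and 9.21, 9.16 and 9.31 on the wild-type arrays (log2). That was 8.26-fold lower in the mutant (limma, adjusted p = 0.0001). The position of its probes relative to the mutation is not given, so this checks the labels only in part. Of 12 oocyte markers 0 passed the test, and their median level was 10.56 in the mutant and 10.73 in wild type. Of 12 cumulus and granulosa markers 2 were higher in the mutant, Kitl (log2 fold change 1.94) and Nr5a2 (1.46), and the summed log2 level of the list was 10.36 to 10.70 in the mutant against 9.32 to 9.49 in wild type. Without those 2 genes it was 7.65 to 8.08 against 7.84 to 7.99, and Fshr, Amh, Amhr2, Inha and Foxl2 did not pass. Theca and stroma markers summed to 7.54 to 7.82 against 7.52 to 7.70, with 1 of 9 higher, Pdgfra (log2 fold change 0.67, limma adjusted p = 0.0299). The Pdgfra call was kept in 5 of 12 alternatives and lost with each array left out (adjusted p = 0.0519 to 0.121). Blood, immune and endothelial markers summed to 7.31 to 7.73 against 7.87 to 7.99, with 1 of 6 lower, Pecam1 (log2 fold change -1.07, limma adjusted p = 0.0144), a call lost without wild type replicate 1 or 3. The part of other cells in the results below was not tested. Mutant replicate 3 stood apart, correlating with the other mutant arrays at 0.970 to 0.973 over all rows, where mutant replicates 1 and 2 correlated at 0.985 and the wild-type arrays with each other at 0.984 to 0.985. It was the lowest of the mutant arrays in 31 of the 43 members, against 6988 of all 19938 genes. Over all rows its median was 4.76 and its SD 2.04, against medians of 4.56 and 4.57 and SDs of 2.20 and 2.19 on mutant arrays 1 and 2. The members lay higher than most genes, with a median mutant mean of 8.26 against 4.98 over all genes. The part of the narrower spread of this array in the count was not tested.

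Among the 43 transport genes, 6 were higher in Marf1 mutant oocytes, 2 were lower and 35 did not pass the test (limma, adjusted p under 0.05 over all rows). All 6 that rose were transport receptors, namely Kpna4, Tnpo3, Kpna1, Xpot, Ipo11 and Ipo7, and both that fell were nucleoporins, Nup85 and Nup188. The rises were 2.63-fold to 18.7-fold and the falls 1.69-fold and 1.67-fold. The 6 higher members are 14.0% of the list, beside 6.40% of all genes, and the 2 lower ones 4.65%, beside 4.04%, so the share of falls lies near the background. By kind, 26.1% of the receptors were higher and 0 lower, and 10% of the nucleoporins were lower and 0 higher. At a change of at least 2-fold the counts were 6 higher and 0 lower, where 4.62% and 1.11% of all genes passed. At an unadjusted p under 0.05, 6 members were higher (all genes 11.0%) and 12 lower, 27.9% of the list beside 13.5% of all genes. All mutant values lay above all wild-type values in 7 members (16.3%, all genes 12.9%) and below them in 14 (32.6%, all genes 17.7%), and in the other 22 the groups overlapped. Of the 12397 genes with a mean above 4.51, a dim-signal level described below, 9.94% were higher and 6.29% lower by the adjusted p. At an unadjusted p under 0.05 these shares were 16.1% and 20.2%. All mutant values lay above all wild-type values in 17.4% of them and below in 25.1%. The median log2 fold change was -0.18 over the members and -0.04 over all genes.

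**Figure D1:**
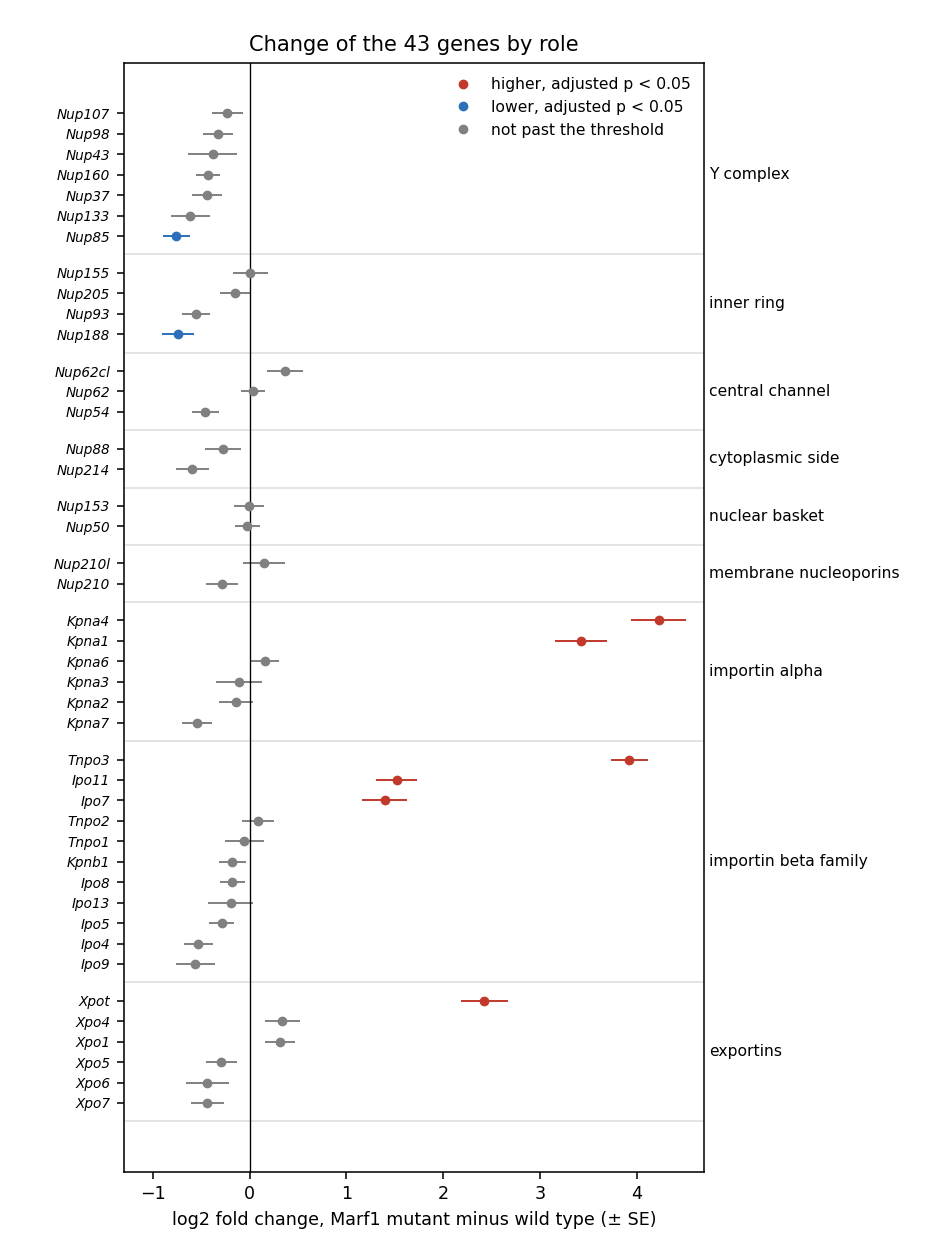
Log2 fold change, Marf1 mutant minus wild type, with its standard error (horizontal axis) for each of the 43 genes, grouped by role. The 6 red points, all transport receptors, lie between 1.40 and 4.23, and 16 of the 20 nucleoporins lie left of 0.

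The sequences around the start sites of 4 called members are printed because these genes moved furthest among those with an entry (Kpna4, Tnpo3, Xpot) or fell (Nup188). They come from RefSeq with build GRCm38.p6 and run from 250 bases before to 50 after the start, on the strand of the gene. Kpna4 lies at chr3:69127043-69127342 on the minus strand, Tnpo3 at chr6:29609800-29610099 on the minus strand, Xpot at chr10:121626283-121626582 on the minus strand and Nup188 at chr2:30286166-30286465 on the plus strand. Capitals mark matches on either strand to the ETS motif CCGGAAG, to the CCAAT box, to the Sp1 motif GGGCGG and to the E-box CACGTG.
Kpna4: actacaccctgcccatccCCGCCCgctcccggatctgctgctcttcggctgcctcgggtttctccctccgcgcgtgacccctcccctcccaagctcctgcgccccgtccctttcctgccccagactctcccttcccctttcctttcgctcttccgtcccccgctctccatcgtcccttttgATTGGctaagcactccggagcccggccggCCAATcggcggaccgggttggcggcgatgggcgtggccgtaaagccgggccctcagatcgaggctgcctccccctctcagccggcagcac
Tnpo3: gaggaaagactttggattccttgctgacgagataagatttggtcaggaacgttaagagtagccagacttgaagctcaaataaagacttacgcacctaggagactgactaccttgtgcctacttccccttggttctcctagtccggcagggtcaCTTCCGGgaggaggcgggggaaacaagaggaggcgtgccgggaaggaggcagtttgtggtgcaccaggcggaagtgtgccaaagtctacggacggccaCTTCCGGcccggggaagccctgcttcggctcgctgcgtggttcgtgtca
Xpot: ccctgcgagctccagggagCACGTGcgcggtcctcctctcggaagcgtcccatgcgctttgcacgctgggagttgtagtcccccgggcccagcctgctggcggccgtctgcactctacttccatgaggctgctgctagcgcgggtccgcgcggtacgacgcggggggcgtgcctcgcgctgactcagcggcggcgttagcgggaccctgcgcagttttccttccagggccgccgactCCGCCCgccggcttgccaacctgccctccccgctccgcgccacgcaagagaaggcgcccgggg
Nup188: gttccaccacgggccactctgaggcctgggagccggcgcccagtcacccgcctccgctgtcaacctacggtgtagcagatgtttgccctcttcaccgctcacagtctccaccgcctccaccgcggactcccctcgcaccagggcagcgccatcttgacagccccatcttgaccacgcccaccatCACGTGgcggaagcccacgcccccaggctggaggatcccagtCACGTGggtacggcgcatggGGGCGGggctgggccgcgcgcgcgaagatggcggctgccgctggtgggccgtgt

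No motif was in all 4 windows. Kpna4 held 2 CCAAT boxes and 1 Sp1 motif, Tnpo3 held 2 ETS motifs, Xpot held 1 Sp1 motif and 1 E-box, and Nup188 held 1 Sp1 motif and 2 E-boxes. Of the 43 members 35 had an entry, with 42 windows between them, and 5 of the 6 risers had one. Counts are by window, also over all promoters, and not by gene. The 2 windows of Nup37 overlap and share their marked matches, as do the 2 of Ipo9, so these matches are counted in each window. The ETS motif was in 7 of the 42 windows, where 8.86% of all 32851 promoters hold it. The CCAAT box was in 23 windows (37.4% of all promoters), the Sp1 motif in 27 (35.7%), the E-box in 7 (7.15%) and the TATA box, TATAAA, in 4 (13.6%). Of the 5 risers' windows 1 held the ETS motif, 2 the CCAAT box, 2 the Sp1 motif, 2 the E-box and 1 the TATA box. The windows of the members had a median of 28 CpG dinucleotides and 64.5% GC, against 7 and 52.7% over all promoters, and those of the 5 risers 27 CpG and 59% GC. A match describes letters in the window and says nothing of a factor bound there.

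The importin alpha genes encode adaptors that recognise the classical nuclear localization signal and hand the cargo to Kpnb1. Of 6 measured, 2 rose (33.3%, all genes 6.40%) and 4 did not pass. Kpna4 read 8.16, 8.07 and 7.23 on the mutant arrays, against 3.21, 3.71 and 3.86 on the wild-type arrays (log2 expression). The lowest mutant value exceeded the highest wild-type value by more than the range within either genotype. The means were 7.82 ± 0.51 in the mutant and 3.59 ± 0.34 in wild type (SD, n = 3 each), an 18.7-fold rise (log2 fold change 4.23, SE 0.28, limma adjusted p = 0.000226). Kpna1, an importin alpha expressed in many tissues, read 7.79, 7.68 and 6.92 in the mutant and 3.69, 4.36 and 4.07 in wild type. It rose 10.7-fold (log2 fold change 3.42, SE 0.27, limma adjusted p = 0.000421). In both genes mutant replicate 3 was the lowest mutant array and still lay above every wild-type array.

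For both genes the wild-type mean, 3.59 for Kpna4 and 4.04 for Kpna1, lay below 4.51, a mark that 95% of 1190 olfactory and vomeronasal receptor genes do not reach in their mean over the arrays. That value, the receptor-gene level, describes a dim signal on these arrays. No background measure comes with the table, so the true rises may be larger, and their ranking is not settled. In wild type 4 of the 43 members lay below the level, Kpna4, Kpna1, Xpot and Nup62cl, and in the mutant only Nup62cl. Among all genes 38.5% lay below it in the mutant and 38.2% in wild type. Of the markers given above, 6 of 12 for cumulus and granulosa cells lay below it in each genotype, 5 of 9 for theca and stroma in the mutant and 6 of 9 in wild type, and 4 of 6 for blood, immune and endothelial cells in each.

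**Figure D2:**
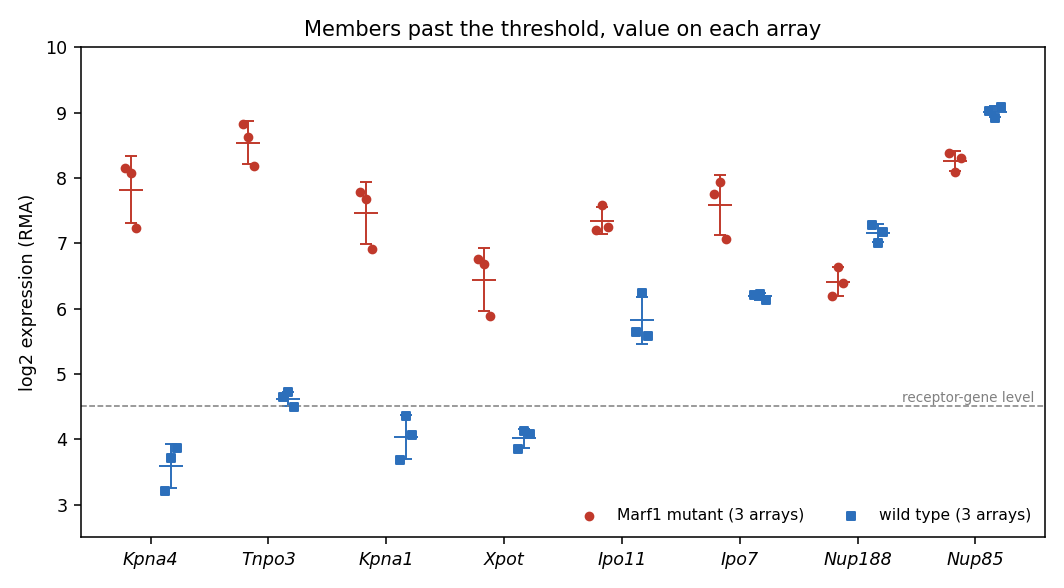
Log2 expression (RMA) on each array for the 8 members past the threshold, with circles for the 3 Marf1 mutant arrays left of squares for the 3 wild-type arrays, and lines for the mean ± SD. The dashed line is the receptor-gene level of 4.51, and in none of the 8 genes do the genotypes overlap.

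The other importin alpha genes gave small differences. Kpna2, abundant in proliferating cells, read 11.13, 11.20 and 10.69 in the mutant and 11.27, 11.02 and 11.16 in wild type, and the groups overlapped (log2 fold change -0.14, limma adjusted p = 0.764). Its 2 other rows gave -0.13 each. Kpna3 read 9.42, 9.29 and 8.65 in the mutant and 9.49, 8.97 and 9.23 in wild type, with overlap (log2 fold change -0.11, limma adjusted p = 0.880). Kpna6, which the early mouse embryo needs from the mother, read 8.73, 8.83 and 8.64 in the mutant and 8.60, 8.40 and 8.71 in wild type, again overlapping (0.16, limma adjusted p = 0.644). Kpna7, the importin alpha of mouse oocytes and early embryos, read 9.98, 9.73 and 9.73 in the mutant and 10.41, 10.18 and 10.48 in wild type. Every mutant value of Kpna7 lay below every wild-type value, and the difference did not pass the threshold (log2 fold change -0.54, SE 0.15, limma adjusted p = 0.0776). It passed in 3 of 13 alternative analyses.

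Several receptors come as close relatives, and the change of one was set against that of the other within each array, in 6 pairs. With 3 arrays against 3 the exact two-sided permutation test cannot go below p = 0.1, so no pair could pass a threshold of 0.05. Kpna4 and Kpna3 changed by 4.23 and -0.11, and the log2 difference between the changes was 4.34 (SE 0.33, exact p = 0.1, adjusted over the pairs 0.15). Kpna1 and Kpna6 changed by 3.42 and 0.16, a difference of 3.26 (SE 0.35, exact p = 0.1, adjusted 0.15). Ipo7 and Ipo8 changed by 1.40 and -0.18, a difference of 1.58 (SE 0.26, exact p = 0.1, adjusted 0.15). In each of these pairs the within-array difference of all mutant arrays lay above that of all wild-type arrays. This also held for Kpna2 and Kpna7, at -0.14 and -0.54, with the smaller difference of 0.40 (SE 0.16, exact p = 0.1, adjusted 0.15). For Tnpo1 against Tnpo2 the difference was -0.14 (SE 0.12) and for Nup210 against Nup210l -0.43 (SE 0.36), each with exact p = 0.4 (adjusted 0.4) and overlapping arrays.

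**Figure D3:**
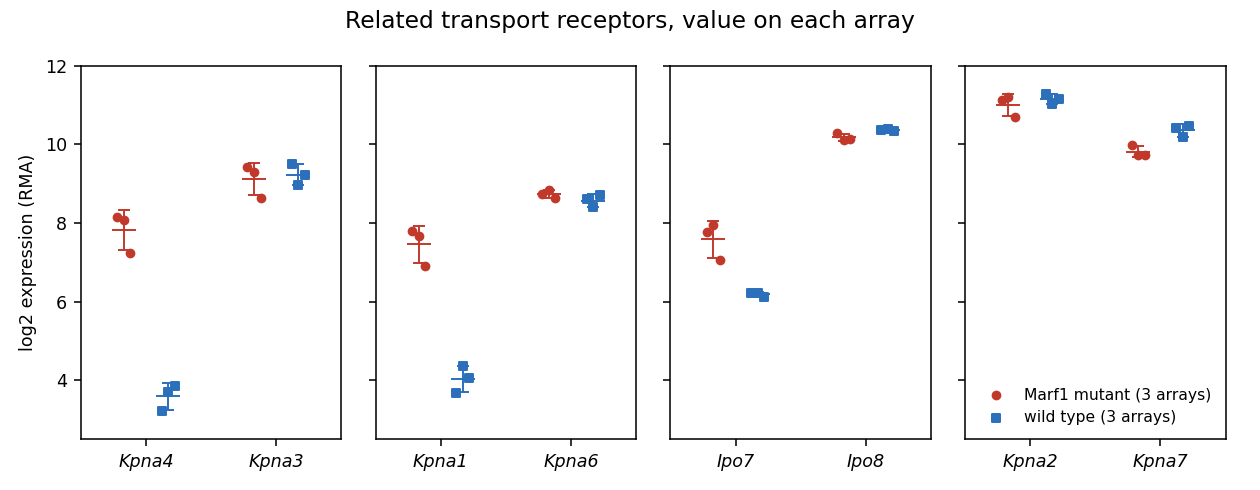
Log2 expression (RMA) on each array for 4 pairs of related receptors, with circles for the 3 Marf1 mutant arrays left of squares for the 3 wild-type arrays, and lines for the mean ± SD. Kpna4, Kpna1 and Ipo7 are separated by genotype with the mutant higher, and Kpna3 and Kpna6 overlap.

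Among the importins and transportins that touch the pore themselves, 3 of 11 measured rose (27.3%, all genes 6.40%) while 8 did not pass. In the figure by role this group is labelled importin beta family, and the exportins are counted apart below. Tnpo3, which imports serine- and arginine-rich splicing factors, read 8.82, 8.63 and 8.18 on the mutant arrays, against 4.64, 4.72 and 4.50 on the wild-type arrays (log2 expression). The genotypes lay far apart relative to the spread within either, at 8.54 ± 0.33 in the mutant and 4.62 ± 0.11 in wild type (SD, n = 3 each). The rise was 15.2-fold (log2 fold change 3.92, SE 0.19, limma adjusted p = 8.79e-05), and the wild-type mean lay just above the receptor-gene level. Ipo11, an importer of ubiquitin-conjugating enzymes, read 7.20, 7.58 and 7.25 in the mutant and 5.65, 6.24 and 5.58 in wild type. It rose 2.87-fold (log2 fold change 1.52, SE 0.21, limma adjusted p = 0.00516), with no overlap. Ipo7, which imports ribosomal proteins and, with Kpnb1, linker histone, read 7.76, 7.94 and 7.06 in the mutant and 6.21, 6.23 and 6.13 in wild type. It rose 2.63-fold (log2 fold change 1.40, SE 0.23, limma adjusted p = 0.0108), and the mutant arrays spread more widely than the wild-type arrays. Without wild type replicate 3 the Ipo7 change was 1.37 and no longer passed (limma adjusted p = 0.0510).

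Kpnb1, the partner of every importin alpha and the main import carrier, read 8.76, 8.70 and 8.53 in the mutant and 8.93, 8.82 and 8.77 in wild type. All mutant values lay below all wild-type values by a small margin (log2 fold change -0.18, SE 0.14, limma adjusted p = 0.584). Ipo8, the closest relative of Ipo7, read 10.29, 10.12 and 10.14 in the mutant and 10.37, 10.39 and 10.33 in wild type, also without overlap (-0.18, limma adjusted p = 0.546). Tnpo1, which imports hnRNP A1, read 9.65, 9.70 and 9.06 in the mutant and 9.66, 9.41 and 9.50 in wild type (-0.05). Tnpo2 read 7.78, 7.85 and 7.50 in the mutant and 7.74, 7.41 and 7.73 in wild type (0.08). Both transportins overlapped between the genotypes. The remaining importins, Ipo4, Ipo5, Ipo9 and Ipo13, had log2 fold changes of -0.53, -0.29, -0.56 and -0.19. In Ipo4, Ipo5 and Ipo9, which carry histones or ribosomal proteins, every mutant value lay below every wild-type value, and the lowest limma adjusted p was 0.0826, for Ipo4. Ipo13, which works in both directions, overlapped.

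Of the 6 exportins 1 rose (16.7%, all genes 6.40%). Xpot, which carries mature tRNA out of the nucleus, read 6.76, 6.68 and 5.89 on the mutant arrays and 3.85, 4.12 and 4.08 on the wild-type arrays (log2 expression). The genotypes did not overlap, at 6.44 ± 0.48 in the mutant and 4.02 ± 0.15 in wild type (SD, n = 3 each). The rise was 5.38-fold (log2 fold change 2.43, SE 0.24, limma adjusted p = 0.00116) and may understate the difference, since the wild-type mean lay below the receptor-gene level. Xpo1, the exporter of proteins with leucine-rich export signals, read 9.60, 9.68 and 9.28 in the mutant and 9.26, 9.21 and 9.14 in wild type. Every mutant value of Xpo1 lay above every wild-type value, with a difference that did not pass (log2 fold change 0.32, SE 0.15, limma adjusted p = 0.315). Xpo4, which exports eIF5A, differed by 0.34 with overlap. Xpo5, the carrier of microRNA precursors, differed by -0.29, and Xpo6, which exports actin with profilin, by -0.44, both overlapping. Xpo7, a carrier of broad cargo, differed by -0.44 with all mutant values below all wild-type values (limma adjusted p = 0.206).

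The 17 receptors that did not pass had a median log2 fold change of -0.18 and ran between -0.56 and 0.34. In 7 of all 23 receptors every mutant value lay below every wild-type value (30.4%, all genes 17.7%), and in 7, the 6 risers and Xpo1, above (30.4%, all genes 12.9%). Over the 12397 genes with a mean level above the receptor-gene level these shares were 25.1% below and 17.4% above. Over all 23 receptors the median was -0.11, but this sign depended on scaling and on 1 array: it was 0.029 after cyclic loess normalization and 0.13 without mutant replicate 3.

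**Figure D4:**
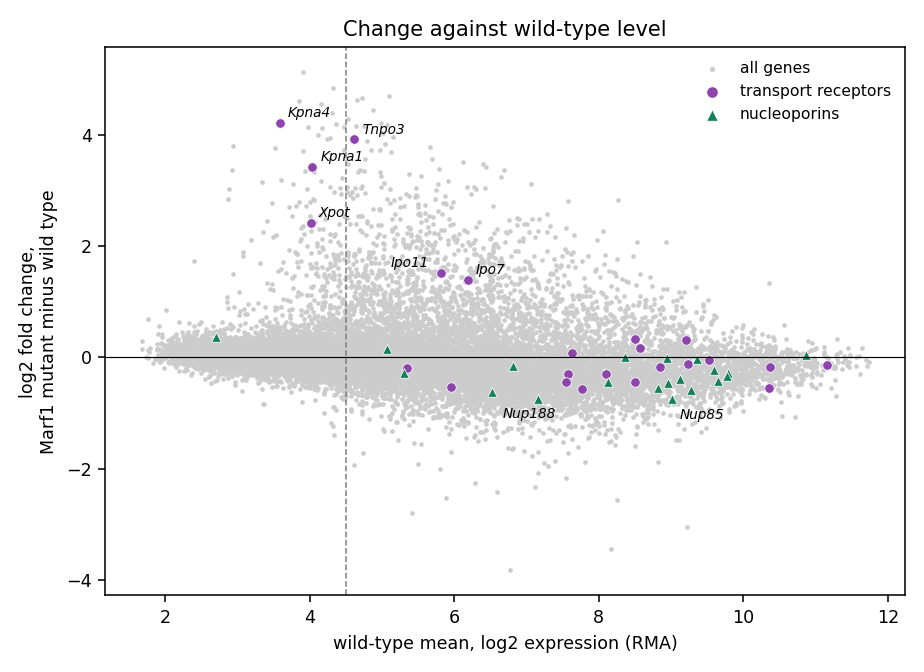
Log2 fold change, Marf1 mutant minus wild type (vertical axis), against the wild-type mean in log2 expression (horizontal axis) for all 19938 genes in grey, the 23 receptors as circles and the 20 nucleoporins as triangles. The 6 risers have wild-type means of 3.59 to 6.19, left of most members, and the dashed line is the receptor-gene level of 4.51; wild-type values enter both axes.

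The wild-type means of the 6 risers ran from 3.59 to 6.19 and those of the 17 other receptors from 5.34 to 11.15 (log2 expression). The plot of change against wild-type level shows this, with the limit that wild-type values enter both axes and that levels of different probe sets do not measure relative amounts. In the mutant the means of the 6 risers ran from 6.44 to 8.54. Mutant replicate 3 was the lowest mutant array in 5 of them. Leaving it out moved Kpna4 to 4.52, Tnpo3 to 4.11, Kpna1 to 3.70, Xpot to 2.70, Ipo7 to 1.66 and Ipo11 to 1.57 on the log2 fold change scale, and 6 members were still higher.

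Of the 20 nucleoporins in the symbol pattern 0 rose, 2 fell (10%, all genes 4.04%) and 18 did not pass (limma, adjusted p under 0.05). Of the genes with a mean level above the receptor-gene level 6.29% fell. In 16 of the 20 nucleoporins the log2 fold change was below 0, and their median was -0.30. Over all genes 56.5% were below 0 with a median of -0.04, and over the 12397 genes with a mean level above the receptor-gene level 60.7% were, with a median of -0.09. The median of the nucleoporins was below 0 under each normalization tried and with each array left out, between -0.37 and -0.19. By array, the median nucleoporin level was 8.53, 8.58 and 8.23 in the mutant and 9.04, 8.87 and 8.93 in wild type, with mutant replicate 3 the lowest. At an unadjusted p under 0.05, 8 of the 20 were lower (40%, all genes 13.5%) and 0 higher (all genes 11.0%). Among those 12397 brighter genes 20.2% were lower and 16.1% higher. In 7 all mutant values lay below all wild-type values (35%, all genes 17.7%), and in 0 above (all genes 12.9%). Among the brighter genes these shares were 25.1% and 17.4%.

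Nup85, part of the Y complex that forms the outer scaffold of the pore, read 8.38, 8.09 and 8.30 on the mutant arrays and 9.03, 8.92 and 9.09 on the wild-type arrays (log2 expression). The genotypes were separated by more than the range within either, at 8.26 ± 0.15 in the mutant and 9.01 ± 0.09 in wild type (SD, n = 3 each). It fell by 0.76 on the log2 scale (SE 0.14, limma adjusted p = 0.0186). Nup188, a large protein of the inner ring, read 6.20, 6.64 and 6.40 in the mutant and 7.28, 7.01 and 7.17 in wild type. It fell by 0.74 on the log2 scale (SE 0.16, limma adjusted p = 0.0345), without overlap. These calls were less firm than those of the receptors. After cyclic loess normalization 0 members were lower, with limma adjusted p = 0.0544 for Nup85 and 0.0659 for Nup188, and 1 of the 2 was kept without any one mutant array and 0 without any one wild-type array. Nup85 was lost without mutant replicate 2 and Nup188 without mutant replicate 1 or 3.

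All 7 genes of the Y complex in the symbol pattern had a log2 fold change below 0, from -0.76 to -0.23 with a median of -0.43. Besides Nup85 these were Nup133 (-0.61), Nup37 (-0.44), Nup160 (-0.43), Nup43 (-0.38), Nup98 (-0.33) and Nup107 (-0.23), none past the threshold. Nup98 is counted here because its transcript also encodes Nup96, a Y complex subunit. Nup160 varied least within the genotypes, with 9.18, 9.30 and 9.17 in the mutant and 9.62, 9.68 and 9.64 in wild type (limma adjusted p = 0.0934). Nup37 was also separated by genotype, and Nup133, Nup43, Nup98 and Nup107 overlapped. The symbol pattern leaves out Seh1l, Ahctf1 and Sec13 of this complex, which differed by 0.60, 0.22 and -0.27, none past the threshold. Every mutant value of Seh1l lay above every wild-type value (limma adjusted p = 0.0774), so the sign of the estimates differed within the complex.

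The inner ring, which lines the channel wall, gave Nup93 at -0.56 (limma adjusted p = 0.0646), Nup205 at -0.15 and Nup155 at 0.01 beside Nup188. Nup93 read 8.30, 8.40 and 8.09 in the mutant and 8.72, 8.94 and 8.80 in wild type, without overlap. In the central channel, whose disordered repeats form the barrier, Nup54 differed by -0.46 without overlap (limma adjusted p = 0.102) and Nup62 by 0.04 with overlap. Nup62cl, a relative of Nup62, lay below the receptor-gene level in both genotypes, so its 0.37 is not read as a change.

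On the cytoplasmic side, Nup214, which helps remodel exported mRNA, read 8.89, 8.68 and 8.46 in the mutant and 9.43, 9.06 and 9.32 in wild type. The groups did not overlap, and the difference of -0.59 did not pass (limma adjusted p = 0.0868). Its partner Nup88 differed by -0.27 with overlap. The nuclear basket genes Nup153 and Nup50 differed by -0.01 and -0.02. The membrane nucleoporin Nup210 read 5.19, 4.98 and 4.90 in the mutant and 5.12, 5.54 and 5.26 in wild type (-0.28), and its relative Nup210l 5.09, 4.94 and 5.64 against 5.29, 4.88 and 5.05 (0.15). Both overlapped between genotypes. The other 8 rows of Nup210l gave changes of -0.31 to 0.17, none past the threshold. Their means, 2.93 to 4.33 over both genotypes, all lay below the receptor-gene level, so these are not read as changes.

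Genes of the pathway that the symbol pattern leaves out were read from 4 lists, 45 genes in all. Of these 5 were higher and 1 lower, 11.1% and 2.22%, beside 6.40% and 4.04% of all genes. Of the 12397 genes with a mean level above the receptor-gene level, 9.94% were higher and 6.29% lower, so the share of rises lies near that background. The median log2 fold change of the 45 genes was 0.03. The higher count was 8 without mutant replicate 3, 3 without mutant replicate 2 and 2 without any other single array, and the lower count was 0 without wild type replicate 1 or 3. Among 9 further nucleoporins 1 rose and 0 fell, with a median of -0.02. This was Ranbp2, the large nucleoporin of the cytoplasmic filaments, which read 8.58, 8.68 and 8.26 in the mutant and 7.38, 7.39 and 7.24 in wild type. The genotypes did not overlap, and the log2 fold change of 1.17 (SE 0.16, limma adjusted p = 0.00413) passed in all 13 alternative analyses.

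Among 12 further receptors and adaptors 2 rose and 0 fell, with all 12 log2 fold changes above 0 and a median of 0.38. Over all genes 56.5% of the changes were below 0. In 7 of the 12 the genotypes overlapped, and in 5 all mutant values lay above all wild-type values (41.7%, all genes 12.9%). Nxf2, Nxf3 and Nxf7 lay below the receptor-gene level in both genotypes, so their 0.08, 0.21 and 0.06 are not read as changes. Nxt2, a relative of the partner of the mRNA exporter Nxf1, read 7.90, 7.86 and 8.09 in the mutant and 6.04, 6.92 and 6.54 in wild type (log2 fold change 1.45, SE 0.23, limma adjusted p = 0.00863), and passed in all 13 alternatives. Heatr3, which carries the ribosomal protein Rpl5, rose by 0.67 (limma adjusted p = 0.0400) on the row with the higher mean. Its other row gave -0.09 (limma adjusted p = 0.886), and the call was kept in 6 of 13 alternatives, among leave-outs only in that of mutant replicate 3. Cse1l, the exportin that returns importin alpha to the cytoplasm, read 9.63, 9.61 and 9.18 in the mutant and 9.09, 8.84 and 8.88 in wild type. All mutant values lay above all wild-type values, and the difference of 0.54 did not pass (limma adjusted p = 0.119). Cse1l was singled out after its values were seen.

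In the Ran cycle 1 of 8 genes rose and 1 fell. Ran itself read 8.61, 8.77 and 8.31 in the mutant and 7.83, 7.78 and 7.97 in wild type (log2 fold change 0.70, SE 0.16, limma adjusted p = 0.0401). The groups did not overlap, and the call was kept in 6 of 13 alternatives, with an adjusted p of up to 0.136, and among leave-outs only in that of mutant replicate 3. Rasl2-9, a close relative of Ran, read 7.09, 7.09 and 6.28 in the mutant and 8.33, 7.82 and 8.51 in wild type and fell by 1.40 on the log2 scale (SE 0.27, limma adjusted p = 0.0223). That call was kept in 10 of 13 alternatives and lost without wild type replicate 1 or 3. Whether the probes of the 2 rows read both transcripts was not tested. Rcc1, the exchange factor that loads Ran with GTP on chromatin, differed by -0.01, and Rangap1, which triggers GTP hydrolysis in the cytoplasm, by -0.15, neither passing.

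Of 19 mRNA export genes 1 rose and 0 fell, with a median of -0.23. Poldip3, a cofactor of spliced mRNA export, read 7.93, 7.57 and 7.59 in the mutant and 6.79, 6.93 and 6.97 in wild type, without overlap. The log2 fold change was 0.80 (SE 0.15, limma adjusted p = 0.0205), and the call was kept in 8 of 13 alternatives and lost without mutant replicate 1 or any one wild-type array.

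**Figure D5:**
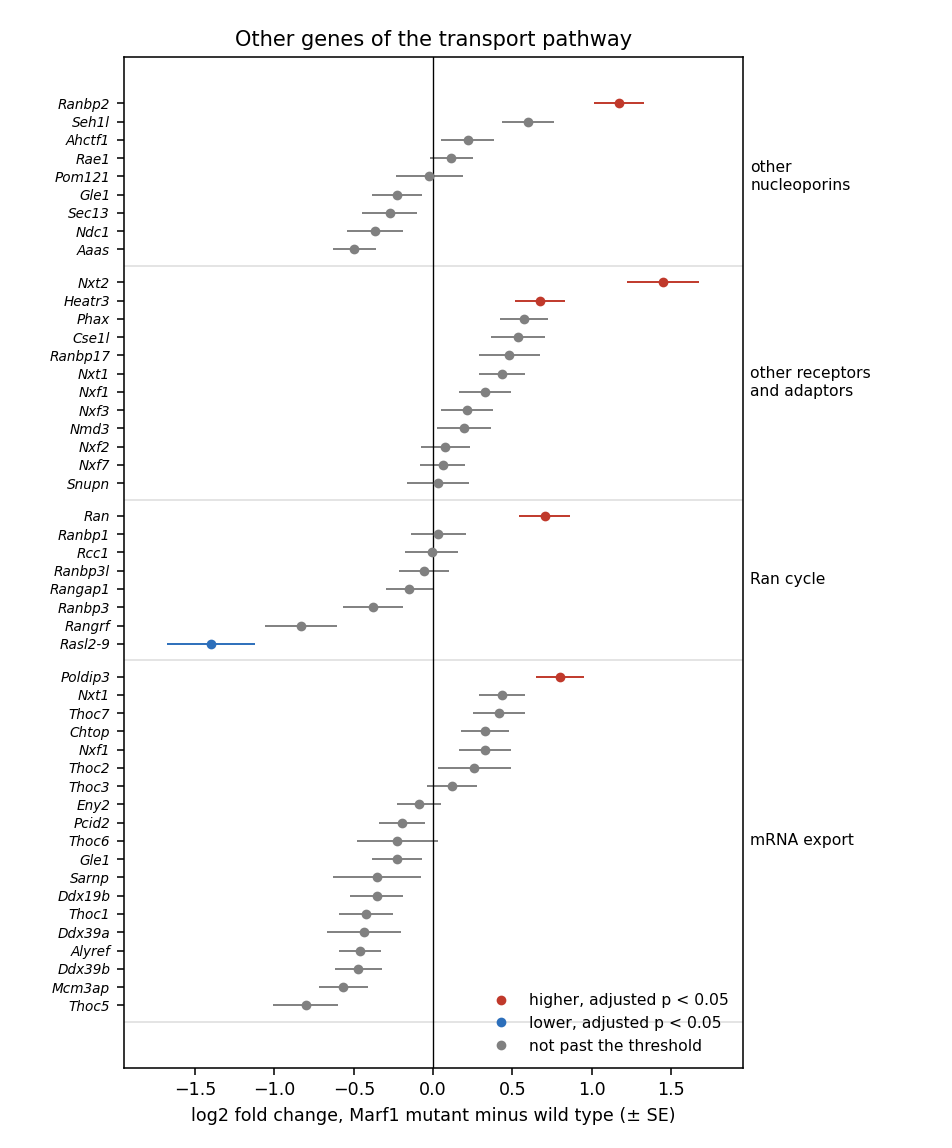
Log2 fold change, Marf1 mutant minus wild type, with its standard error (horizontal axis) for the measured genes of the 4 further lists; genes in 2 lists appear in both. Ranbp2 at 1.17 and Nxt2 at 1.45 are furthest right and Rasl2-9 at -1.40 furthest left.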

How the data were processed

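Expression was measured on 3 Marf1 mutant and 3 wild-type arrays of mouse fully-grown oocytes. The authors deposited 1 log2 expression value per probe set and array, with 2 decimals, made with GCOS, Affymetrix Expression Console 1.1 and RMA, per the submitters' processing notes. For the genome build behind the array: not given in the sources used here. Groups and replicate numbers came from the sample titles. Of 35556 rows, 21789 named 1 gene in the platform annotation, 1621 named several and 12146 were not named, leaving 19938 genes.

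Genotype was the only term in a two-sided limma fit of all rows (limma 3.58.1, R 4.3.3, functions lmFit and eBayes). The prior degrees of freedom were 3.65. P-values were adjusted by Benjamini-Hochberg over the whole table, and calls needed an adjusted p under 0.05. Fold changes are mutant minus wild type. Related pairs were compared by exact permutation of the within-array difference. The pipeline was tested on simulated data. Promoters were matched by symbol.

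The members, the lists and the rule for named genes were chosen with earlier results of these data known. The rule names every member past the threshold, both genes of each pair, Kpnb1, Xpo1, the importin alpha genes, the called genes of each further list, Ran, Rangap1, Rcc1 and Marf1. Values of other members were added to show their roles. Ddx19a, Nutf2, Tpr and Zc3h11a of the further lists, and Cyp19a1, Hba-a1 and Hbb-b1 of the markers, are not analysed here. Alternatives covered scaling, low rows, the rows tested, the variance model, the replicate block, other rows of a gene and leaving out each array.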

Additional observations from a re-analysis of the deposited data

How the results depend on the processing

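The 6 rises were called in every alternative tried except that Ipo7 was lost without wild type replicate 3, which left 5. The 2 falls depended on the setting: 6 members were lower with 1 row per gene or with rows above the median level, 4 with an intensity trend or quantile normalization, 1 with median centring, 0 with cyclic loess normalization and 0 to 1 with an array left out. Nup93, Nup214, Kpna7 and Ipo4 were called lower in 4, 3, 3 and 2 of 13 alternatives. No call turned round, and of the single-gene values 45 lost and 12 gained a call while 680 kept their side. With the further lists, 5 higher became 9 under loess, 8 under quantile normalization, 3 under centring and 2 to 8 with an array left out, and 1 lower became 6 with 1 row per gene or rows above the median, 4 under quantile normalization and 0 to 1 with an array left out. Over all genes the 1276 higher ranged from 825 to 1423 and the 806 lower from 199 to 617 with an array left out. The lower count was 1514 with 1 row per gene, 1278 above the median, 527 under loess and 485 under centring. Over all rows, 1700 higher became 1071 to 1908 with an array left out, and 1065 lower became 297 to 896, 1646 above the median and 669 under centring. The median change of the nucleoporins ranged from -0.37 to -0.19 with an array left out; that of the receptors, -0.11, was 0.029 under loess and ranged from -0.20 to 0.13. These medians under other scalings were added after seeing the data. Quantile normalization moved the median change of all genes to -0.06 and loess to -0.0083.

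The deviations of samples with equal replicate numbers correlated at 0.15, -0.10 and 0.03 for numbers 1, 2 and 3. Of the 6 samples 3 correlated best with their own number. With 3 arrays per genotype this cannot tell whether equal numbers share an animal, litter or day, and the labels do not say. The replicate block left 6 members higher and 1 lower, 2 and 0 genes of the further lists, 1048 and 383 of all genes, and 1390 and 556 of all rows. Values near the receptor-gene level limit what can be said of the size of the largest rises.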
